A study of Saccharomyces cerevisiae with 6 samples.

Results

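Biotin is the vitamin cofactor of the yeast carboxylases, and budding yeast either makes it from a late precursor or takes it up. Messenger RNA of 6 Saccharomyces cerevisiae genes of that pathway, BIO2, BIO3, BIO4, BIO5, VHT1 and BPL1, was measured in a strain with an altered histone H4. These genes were chosen by gene symbol because BIO4 was among the largest differences between the strains, so their strain differences are given as descriptions with no p-value. Each of the 6 had 1 probe set, among 5716 probe sets and 5449 named genes on the array, and none of these probe sets has the suffix Affymetrix gives to sets shared by several transcripts.

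One strain was H4R45H, in which arginine 45 of histone H4 is replaced by histidine, and the other strain was the wild type WY139, with wild-type histone H4. There were 3 one-colour Affymetrix arrays of total RNA for each. Cultures of both strains grew in YPD, which is rich and holds glucose, and were harvested in mid log phase at an optical density (OD600) of 0.5 to 0.7. The rest of either genotype, the number of clones and whether replicates were separate cultures are not given in the sources used here, so a p-value here reflects array-to-array spread that could be technical alone. The comparison asks how a change of 1 residue in the core of H4 affects messenger RNA levels. Arrays averaged 277 to 287 in signal, and the median signal was 159 to 163 on the H4R45H arrays and 148 to 151 on the wild-type arrays. The number of arrays limits the precision.

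Yeast of the reference type lacks the first steps of biotin synthesis and starts from 7-keto-8-aminopelargonic acid, called KAPA. Bio5 carries KAPA across the plasma membrane, Bio3 (an aminotransferase) turns it into 7,8-diaminopelargonic acid, Bio4 (dethiobiotin synthetase) closes the first ring, and Bio2 (biotin synthase, an iron-sulfur enzyme of mitochondria) inserts the sulfur. Vht1 is the proton symporter that takes up biotin itself. Bpl1 is the ligase that attaches biotin to the carboxylases, and it is essential. In wild-type yeast the synthesis and transport genes are known to respond to biotin supply, and Vhr1 is known as an activator of VHT1 and BIO5 when biotin is scarce.

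All of the synthesis and transport genes had higher signals in H4R45H as deposited, and the ligase gene did not, while the BIO5 difference came down to 0.02 after quantile normalization. The fold differences on the fitted log2 scale were 4.99 for BIO4, 3.35 for BIO3, 2.86 for BIO2, 1.87 for BIO5 and 1.58 for VHT1, against 0.885 for BPL1. The strains' arrays were fully apart for 5 of the 6 genes, against 71.5% of all 5449 genes. At an adjusted p under 0.05 in limma's fit over all probe sets, 5 of the 6 were called higher and 0 lower, where 37.1% of all genes were called higher and 29.1% lower, 66.2% in all. With a minimum of 2-fold 3 of the 6 were called higher, against 8.88% of all genes. Since the genes were picked with these differences in view, nothing is read from these counts. In RNA from a whole culture, more transcript per cell and more cells with the transcript cannot be told apart.

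**Figure D1:**
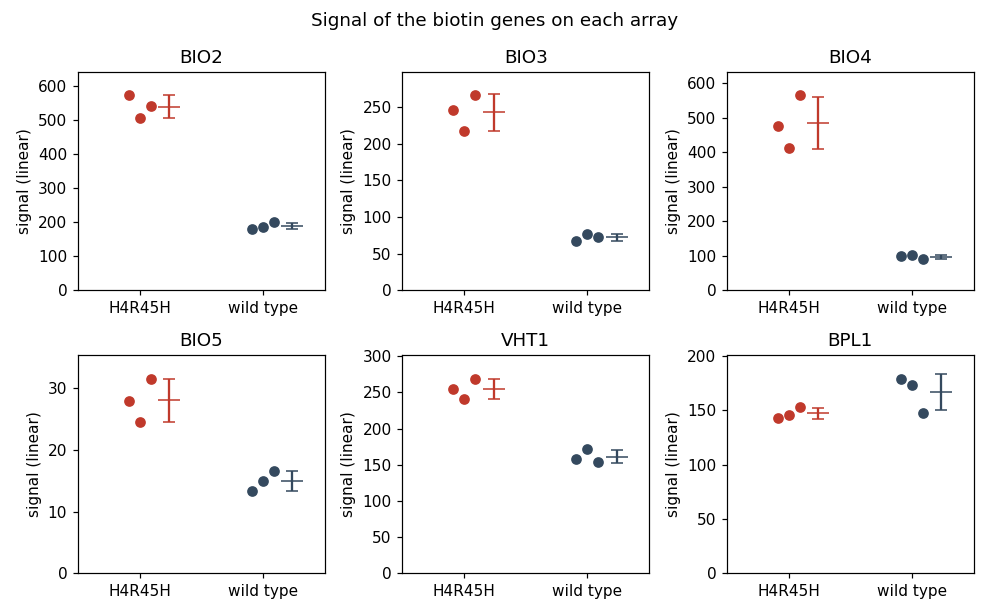
Signal on a linear scale for each of the 6 biotin genes, with 1 panel per gene, H4R45H arrays in red on the left and wild-type arrays in dark blue on the right. Points are the 3 arrays and the bars beside them the mean ± SD. The strains are apart for 5 genes, with BIO4 at 413.1 to 565.1 in H4R45H and 89.5 to 101.9 in wild type, and they overlap for BPL1.

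BIO4 (YNR057C), the dethiobiotin synthetase gene, had the largest difference of the pathway. Its signal was 476.7, 413.1 and 565.1 on the H4R45H arrays, against 98.2, 101.9 and 89.5 on the wild-type arrays. The lowest H4R45H array lay 311.2 above the highest wild-type array, while the spread within H4R45H was the widest of the 6 genes. The means were 485 ± 76.3 in H4R45H and 96.5 ± 6.37 in wild type (SD, n = 3 each), a coefficient of variation of 15.7% and 6.59%. The log2 difference was 2.32 (SE 0.104), which ranked 34 of 5449 genes as deposited. With the dimmest 25% of probe sets left out BIO4 ranked 9 of 4121 genes.

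BIO3 (YNR058W), the aminotransferase gene that acts just before BIO4 and lies beside it in the genome, had the second largest difference. It read 245.8, 216.7 and 266.2 in H4R45H, against 67.3, 77.0 and 72.7 in wild type. Each H4R45H array was above each wild-type array, with 139.7 between the nearest values. The means were 243 ± 24.9 in H4R45H and 72.3 ± 4.86 in wild type (SD, n = 3 each), and the log2 difference was 1.74 (SE 0.088).

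BIO2 (YGR286C), which encodes biotin synthase and stands apart from the other BIO genes in the genome, read 573.1, 505.0 and 541.4 in H4R45H and 180.5, 186.1 and 199.7 in wild type. The arrays were tight in both strains and 305.3 apart at the nearest. The means were 539.8 ± 34.1 in H4R45H and 189 ± 9.87 in wild type (SD, n = 3 each), with a log2 difference of 1.52 (SE 0.067).

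VHT1 (YGR065C), the biotin symporter gene, read 255.2, 241.2 and 269.2 in H4R45H, against 158.0, 171.8 and 154.5 in wild type. The strains were apart by 69.4 at the nearest values, and the coefficients of variation were 5.49% in H4R45H and 5.67% in wild type. Its log2 difference was 0.66 (SE 0.069).

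BIO5 (YNR056C), the KAPA carrier gene, gave the dimmest probe set of the 6. It read 27.9, 24.5 and 31.5 in H4R45H, against 13.3, 15.0 and 16.5 in wild type, and the strains were 8.0 apart at the nearest values. Only 5.27% of genes had a lower mean signal, and no detection calls were used here, so whether these readings stand above the array's background is not known. The log2 difference of 0.90 (SE 0.137) stood beside a median of 0.71 in the dimmest of 10 equal classes of genes by mean signal, where 64.0% were called higher. After quantile normalization the BIO5 difference was 0.02 and after cyclic loess 0.23, and it was called under neither.

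BPL1 (YDL141W), the biotin ligase gene, overlapped between the strains. It read 142.9, 145.5 and 152.9 in H4R45H, against 179.1, 173.4 and 147.5 in wild type, where replicate 3 stood inside the H4R45H range. The log2 difference was -0.18 (SE 0.082) and was not called as deposited. It was -0.26 and called lower without wild type replicate 3, and -0.28 and called lower after quantile normalization or median centring.

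Differences on these arrays depend on brightness, since dim genes as a body read higher in H4R45H. BIO4 and VHT1 lie in a brightness class with a median difference of -0.07, where 29.9% of genes were called higher. The class of BIO2 had a median of -0.09, with 27.0% called higher, and that of BIO3 and BPL1 a median of 0.08, with 37.6%. The median of all genes moved by over 0.1, being 0.05 as deposited and -0.07 after quantile normalization. The differences of BIO4, BIO3, BIO2 and VHT1 after quantile normalization were 2.24, 1.60, 1.53 and 0.61, and after cyclic loess 2.35, 1.68, 1.60 and 0.68.

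**Figure D2:**
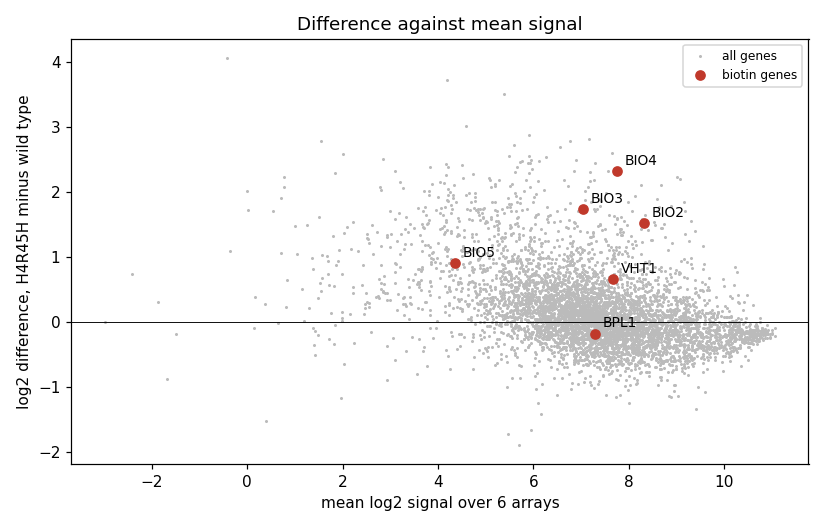
Log2 difference, H4R45H minus wild type, against mean log2 signal over the 6 arrays for all 5449 genes (grey points) and the biotin genes (red points). BIO4, BIO3 and BIO2 lie at 2.32, 1.74 and 1.52 in the middle of the signal range, and BIO5 lies at the dim end, where most genes are above 0.

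**Figure D3:**
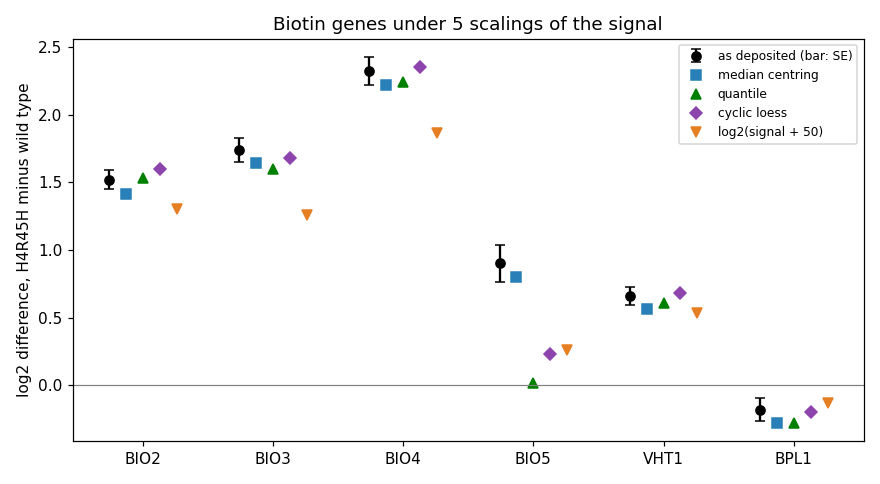
Log2 difference, H4R45H minus wild type, of each biotin gene as deposited (black, bar is SE) and under 4 other scalings. BIO2, BIO3, BIO4 and VHT1 stay above 0 under all 5, BIO5 drops to 0.02 after quantile normalization, and BPL1 stays below 0.

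Among the H4R45H arrays, replicate 2 gave the lowest H4R45H signal for BIO2, BIO3, BIO4, BIO5 and VHT1 alike, and replicate 3 the highest for BIO3, BIO4, BIO5 and VHT1. Among the 484 genes called at least 2-fold higher in H4R45H, replicate 3 was the highest array for 68.6%, against 36.8% of all genes. The lowest array was replicate 2 for 45.7% of these 484 genes and replicate 1 for 42.4%, against 26.4% and 35.5% of all genes. Without H4R45H replicate 3 the difference of BIO4 was 2.20 and that of BIO3 1.68, and without H4R45H replicate 2 they were 2.43 and 1.82. The part of array quality in this pattern was not tested.

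As deposited, the genes with the profile most like that of BIO4 over the 6 arrays were not biotin genes. Likeness was the root mean square distance between log2 signals as deposited, centred on each gene's own mean. It therefore depends largely on the size of the strain difference, and a gene with a smaller difference lies further away. The nearest was YOL162W, at a distance of 0.048, which read 109.2, 93.1 and 128.8 in H4R45H against 21.3, 23.9 and 21.6 in wild type. HBT1, YHL048C-A, FLO1 (a flocculin) and LEE1 followed at 0.067, 0.078, 0.097 and 0.104. BIO3 was the nearest of the other biotin genes, at 0.30, in place 92, and BIO2 was in place 189 at 0.43. These genes were chosen for their difference, so no test is given for them.

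Genomic neighbours of the biotin genes were taken from the gene order of the RefSeq assembly R64, as 5 annotated genes on each side. BIO5, BIO4 and BIO3 lie next to each other, with 20 to 22 coding genes further out on the chromosome. Of the 6 measured neighbours of this cluster 1 rose and 3 fell, while 2 did not pass, and their median log2 difference was -0.26, where 37.1% of all genes rose and 29.1% fell. HOL1, a transporter gene next to BIO5, read 302 ± 9.49 in H4R45H and 282 ± 7.27 in wild type (SD, n = 3 each; log2 difference 0.10, adjusted p = 0.14), and passed as higher only with cyclic loess among the 4 scalings (0.17, adjusted p = 0.025). MNT4, a mannosyltransferase gene next to BIO3, rose to 141 ± 1.70 in H4R45H, against 82.7 ± 8.81 in wild type (SD, n = 3 each; log2 difference 0.77, SE 0.085, adjusted p = 2.1e-05). FRE4, a ferric reductase gene 1 place further, fell to 60.9 ± 5.91 in H4R45H, against 133 ± 8.95 in wild type (SD, n = 3 each; log2 difference -1.13, adjusted p = 2.1e-06). The differences at and beside the cluster thus ran in both directions within a few genes. Genes with 10 to 29 coding genes further out had a median difference of 0.02, and 37.0% of these 589 genes were called higher.

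BIO2 has 7 coding genes further out and borders the MAL1 maltose locus. Of its 7 measured neighbours 5 rose and 2 fell as deposited, and 3 rose and 0 fell with quantile normalization or cyclic loess. Over all 5449 genes 37.1% were called higher and 29.1% lower as deposited. The numbers were 1464 higher and 2006 lower with quantile normalization, and 1673 and 1654 with cyclic loess. On the outer side the isomaltase gene IMA1 read 37.9, 40.2 and 42.4 in H4R45H, against 24.3, 21.9 and 23.9 in wild type (log2 difference 0.78, adjusted p = 6.3e-05), and MAL13 rose by 0.63 on the same scale (adjusted p = 5.0e-04). Both are in the dimmest class, and both calls were lost after quantile normalization, where MAL13 turned to -0.12 (adjusted p = 0.33) and IMA1 had 0.10 (adjusted p = 0.41). With cyclic loess they were lost as well (adjusted p = 0.098 for IMA1 and 0.91 for MAL13). On the inner side ERV29 rose by 0.18 (adjusted p = 0.027), and the chaperone gene ZUO1 fell by 0.22 (adjusted p = 0.0016). ERV29 lost its call after median centring (adjusted p = 0.34) and without H4R45H replicate 2 or wild type replicate 3 (adjusted p = 0.096 and 0.098). ZUO1 lost it after quantile normalization (adjusted p = 0.084) and cyclic loess (adjusted p = 0.27). Of the 235 genes with 0 to 9 coding genes further out 70.2% were called higher, with a median of 0.65, or 0.34 after quantile normalization. BIO2 is 1 of these.

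VHT1 and BPL1 lie far from chromosome ends, with 223 and 100 coding genes further out. Beside VHT1, SPT4 fell (log2 difference -0.29, adjusted p = 0.0031), COX18 rose (0.35, adjusted p = 0.0012) and the dim YGR067C rose (1.30, adjusted p = 6.0e-06), while GID10 was not measured by a named probe set. COX18 was not called after quantile normalization (0.07, adjusted p = 0.34) or cyclic loess (0.12, adjusted p = 0.14), and YGR067C came to 0.50 (adjusted p = 0.0065) and 0.65 (adjusted p = 0.0011) under them. Of 8 measured neighbours of VHT1 3 rose, 3 fell and 2 did not pass, and after quantile normalization 2 rose and 3 fell. Beside BPL1, CCT4 fell (-0.26, adjusted p = 6.4e-04) and SCM3 rose (0.40, adjusted p = 0.0066). The CRD1 difference was 0.25 (adjusted p = 0.078) and that of RPO21 -0.16 (adjusted p = 0.083). CRD1 passed as higher once wild type replicate 2 was left out (0.33, adjusted p = 0.041) and as lower with quantile normalization (-0.25, adjusted p = 0.049). RPO21 passed as lower once H4R45H replicate 3 was left out (-0.24, adjusted p = 0.0067) or with median centring (-0.26, adjusted p = 0.014). With quantile normalization SCM3 was at -0.03 (adjusted p = 0.81), and with cyclic loess at 0.05 (adjusted p = 0.68). Of 9 measured neighbours of BPL1 2 rose, 3 fell and 4 did not pass as deposited, while 0 rose and 4 fell with quantile normalization and 0 rose and 2 fell with cyclic loess. Over all genes 37.1% were called higher and 29.1% lower as deposited.

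**Figure D4:**
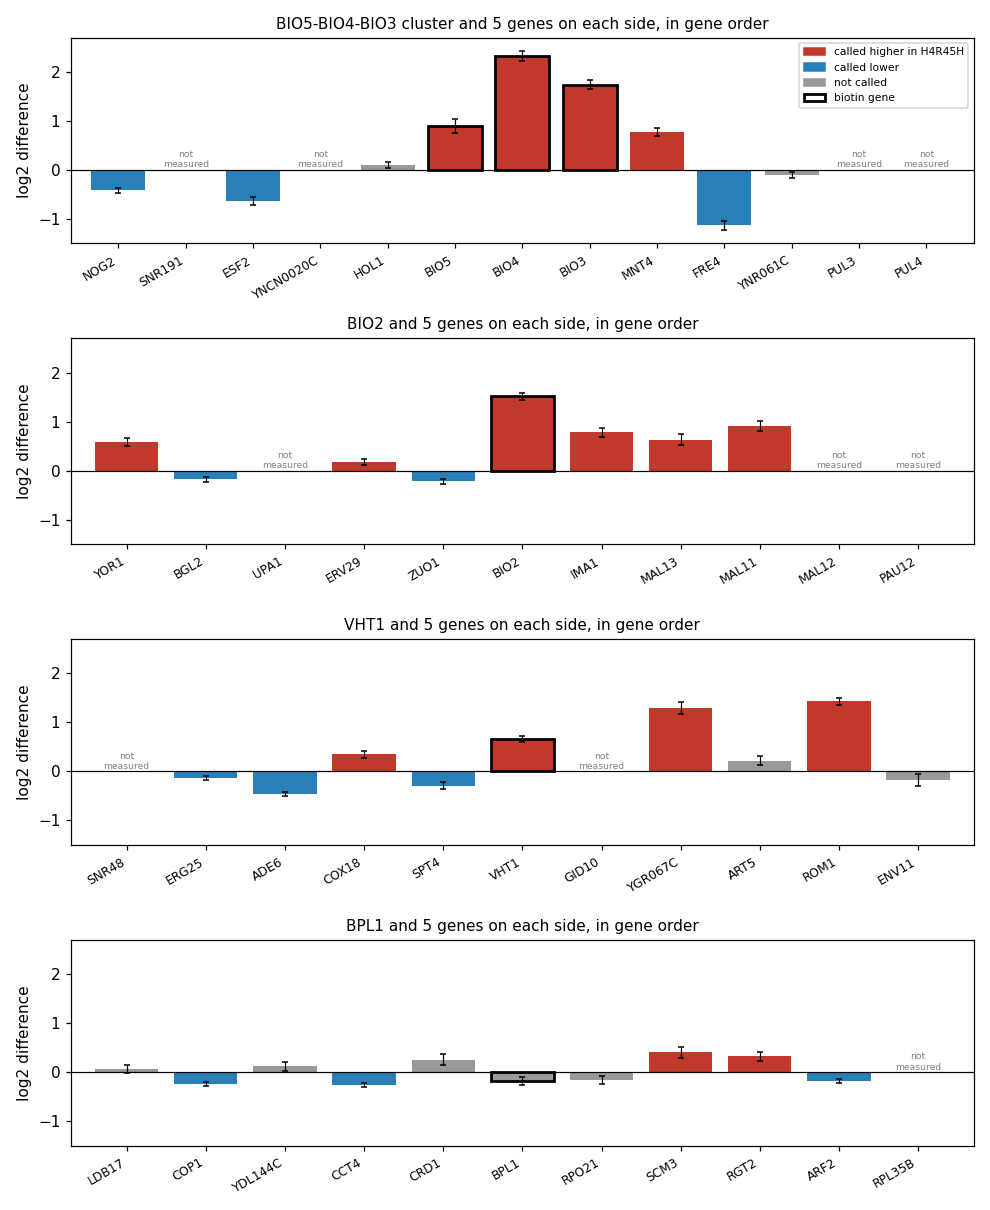
Log2 difference, H4R45H minus wild type, of the biotin genes (black outline) and 5 annotated genes on each side, in gene order. Bars are red where called higher, blue where called lower and grey where not called, and error bars are SE. BIO4 at 2.32 and FRE4 at -1.13 are 3 places apart.

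Genes for proteins that carry biotin had differences of both signs. Of 5 measured 1 rose, 2 fell and 2 did not pass, with a median of 0.02, where 37.1% of all genes rose and 29.1% fell and their median was 0.05. After quantile normalization 2 rose and 1 fell. PYC1, a pyruvate carboxylase gene, rose to 563.4, 558.2 and 599.7 in H4R45H, against 439.0, 479.3 and 444.7 in wild type (log2 difference 0.34, SE 0.057, adjusted p = 4.2e-04). Its isozyme gene PYC2 read 839 ± 41.2 in H4R45H and 828 ± 21.6 in wild type (SD, n = 3 each; log2 difference 0.02, adjusted p = 0.78), and was called higher after quantile normalization (0.14, adjusted p = 0.016) and cyclic loess (0.17, adjusted p = 0.0091). ARC1, a tRNA synthetase cofactor that also carries biotin, fell to 809 ± 10.3 in H4R45H, against 1066 ± 34.6 in wild type (SD, n = 3 each; log2 difference -0.40, adjusted p = 2.7e-05). Its brightness class had a median of -0.18, with 65.7% of genes called lower. ARC1 was still called lower after quantile normalization (-0.26, adjusted p = 2.1e-04) and cyclic loess (-0.24, adjusted p = 3.5e-04).

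ACC1, the cytosolic acetyl-CoA carboxylase gene, read 1555.1, 1523.2 and 1480.4 in H4R45H, against 1722.3, 1707.0 and 1739.6 in wild type. The log2 difference of -0.18 (SE 0.039, adjusted p = 0.0019) equals the median of its brightness class, and it was -0.01 after quantile normalization (adjusted p = 0.87) and turned to 0.01 after cyclic loess (adjusted p = 0.89). HFA1, the mitochondrial acetyl-CoA carboxylase gene, had 0.15 (adjusted p = 0.12), which passed once wild type replicate 3 was left out (0.21, adjusted p = 0.039), and the difference turned to -0.02 after quantile normalization. The urea amidolyase gene DUR1,2 was not analysed here.

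Both regulator genes passed the test, in opposite directions, where 66.2% of all genes passed, 37.1% higher and 29.1% lower. VHR1 rose to 223.0, 223.9 and 229.6 in H4R45H, against 178.2, 186.0 and 177.7 in wild type (log2 difference 0.32, SE 0.058, adjusted p = 6.8e-04), and the arrays did not overlap. It was called higher under all 4 scalings, at 0.22 to 0.34. Its paralog VHR2 read 297.6, 322.3 and 301.9 in H4R45H, against 354.9, 348.4 and 330.9 in wild type (log2 difference -0.17, SE 0.059, adjusted p = 0.029). The VHR2 call was lost after cyclic loess (-0.08, adjusted p = 0.25), and without H4R45H replicate 1 or 3 or wild type replicate 1 or 2 (-0.16 to -0.14, adjusted p = 0.056 to 0.11).

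Genes that supply the cofactors of biotin synthesis were measured beside it. Among 15 genes for iron-sulfur clusters, which Bio2 needs, 6 rose, 5 fell and 4 did not pass, with a median of 0.09, shares near the 37.1% higher and 29.1% lower of all genes. After quantile normalization 3 rose and 5 fell. JAC1, a co-chaperone (0.59, adjusted p = 1.0e-04), IBA57 (0.57, adjusted p = 7.6e-05) and ISD11, a partner of the cysteine desulfurase (0.41, adjusted p = 0.0019), rose, and the scaffold gene ISU2 fell (-0.42, adjusted p = 7.7e-04). JAC1 was not called after quantile normalization (0.18, adjusted p = 0.077), and IBA57 came to 0.22 there (adjusted p = 0.021) and to 0.27 with cyclic loess (adjusted p = 0.0061). ISA1 and ISA2, which with IBA57 act in the late step that Bio2 depends on and are named after their values were seen, differed by -0.20 (adjusted p = 0.023) and 0.22 (adjusted p = 0.0085). ISA1 lost its call without H4R45H replicate 2 or wild type replicate 1 or 2 (adjusted p = 0.052 to 0.11). ISA2 was not called after quantile normalization (0.12, adjusted p = 0.11) or median centring (0.11, adjusted p = 0.13).

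In Escherichia coli the counterpart of Bio3 takes its amino group from S-adenosylmethionine. Of the 3 yeast genes that make or import this compound, the synthetase gene SAM1 fell to 776 ± 8.91 in H4R45H, against 1083 ± 33.4 in wild type (SD, n = 3 each; log2 difference -0.48, adjusted p = 6.7e-06), and the permease gene SAM3 fell (-0.33, adjusted p = 0.0030). SAM2 had 0.11 (adjusted p = 0.16) and was called higher after quantile normalization (0.25, adjusted p = 0.0036) and cyclic loess (0.27, adjusted p = 0.0032). SAM1 stayed lower under these, at -0.35 (adjusted p = 3.7e-05) and -0.33 (adjusted p = 5.8e-05). Both synthetase genes are in the brightest class, where the median was -0.18 and 65.7% were called lower. Over all genes 37.1% were called higher and 29.1% lower.

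Carriers related to VHT1 and BIO5 were set beside them. Of 7 listed transporters of the Dal5 type 6 were measured, without SOA1. Of these 6 listed genes 5 rose and 1 fell, where 37.1% of all genes rose and 29.1% fell. The median was 0.61, or 0.39 after quantile normalization. THI73 had the largest rise among these 6, with 80.6, 68.6 and 74.1 in H4R45H against 21.2, 24.8 and 23.7 in wild type (log2 difference 1.68, adjusted p = 3.4e-07). SEO1 (1.54, adjusted p = 6.3e-06) and the cysteine transporter gene YCT1 (0.83, adjusted p = 3.8e-05) rose, and the allantoate permease gene DAL5 fell (-0.57, adjusted p = 0.0022). After quantile normalization THI73 had 1.16, SEO1 0.88 and YCT1 0.36, each still called. These 3 genes are dim, and 62.2% to 64.0% of genes in their brightness classes were called higher. Of 3 permeases related to BIO5, UGA4, for gamma-aminobutyrate, rose (0.86, adjusted p = 1.8e-05, or 0.51 after quantile normalization), HNM1, for choline, fell (-0.50, adjusted p = 5.9e-05), and TPO5 had 0.08 (adjusted p = 0.34).

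Iron supply and biotin genes are known to be linked in yeast, where iron scarcity raises VHT1 through Aft1 and lowers biotin synthesis genes. Of 23 genes of the Aft1 iron regulon 12 fell, 5 rose and 6 did not pass, with a median of -0.31, where 29.1% of all genes fell and 37.1% rose. FET3, the ferroxidase gene, fell to 325.5, 315.8 and 303.0 in H4R45H, against 715.9, 703.6 and 693.3 in wild type (log2 difference -1.16, adjusted p = 6.0e-08), and FIT2 fell (-1.25, adjusted p = 2.0e-06) as FRE4 did. ARN2, a siderophore transporter gene, rose to 243.4, 241.0 and 250.1 in H4R45H, against 90.7, 104.5 and 89.3 in wild type (1.37, adjusted p = 1.9e-07). VHT1, which is not in this list, had 0.66. Whether iron has a part in the levels of the biotin genes was not tested.

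**Figure D5:**
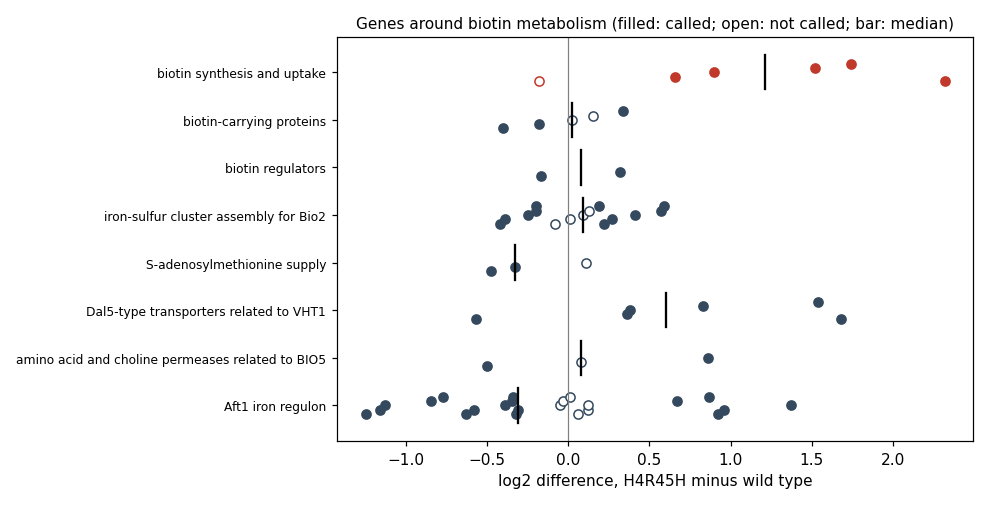
Log2 difference, H4R45H minus wild type, of each measured gene in 8 lists around biotin metabolism, with the biotin genes in red. Filled points were called and open points were not, and black bars are list medians, 1.21 for the biotin genes, 0.02 for biotin-carrying proteins and -0.31 for the Aft1 iron regulon.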

How the data were processed

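Total RNA of the H4R45H and wild-type strains was measured on 6 arrays, 3 per strain, grouped by their titles. The authors deposited linear intensities, a single value for each probe set. MAS5, named in the submitters' processing notes, made them, and its version, scaling target and detection calls are not given in the sources used here. Gene names came from the platform annotation, updated by Entrez identifier to RefSeq R64, and a gene was read from its brightest probe set. Signals were taken as log2, with 7 values at 0 set to 0.1. limma 3.58.1 in R 4.3.3 (lmFit, eBayes with trend, two-sided) fitted H4R45H minus wild type, Benjamini-Hochberg adjusted over 5716 probe sets, with calls made at an adjusted p below 0.05. "Rose" and "fell" are used of called genes. Members and gene lists were chosen with earlier results of these data known. Named are the members, biotin-carrying proteins, regulators, up to 4 called genes per other list by size, neighbours within 2 places, and the 5 genes nearest to BIO4. On simulated data for this comparison over 5716 probe sets, the fit recovered 44% of 50 probe sets shifted by 0.25, 100% of 50 shifted by 0.5, 98% of 50 shifted by 1 and 98% of 50 shifted by 1.5, with 8 false calls. The simulation shifted only these probe sets, with independent noise and no shift by brightness, while 66.2% of genes were called in the data. Its recovery and false calls may therefore not hold for these arrays. Alternatives were other scalings, a pseudocount of 50, no variance trend, no dim probe sets, the replicate block, leaving out arrays, mean probe sets and a 2-fold minimum.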

Additional observations from a re-analysis of the deposited data

How the results depend on the processing

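BIO2, BIO3, BIO4 and VHT1 stayed called higher under each of 14 alternatives without a fold minimum. Their log2 differences there were 1.30 to 1.60, 1.26 to 1.82, 1.86 to 2.43 and 0.53 to 0.71. Dropping the variance trend or the dim probe sets, or adding the replicate block, could not change these differences, only their SE and the calls. Each probe set was fitted by itself, and each block held 1 array of each strain. Mean probe sets could not change the differences either, with 1 probe set per gene. VHT1, at 1.58-fold, was not called with a minimum of 2-fold. BIO5 was not called after quantile normalization (0.02) or cyclic loess (0.23), and it was not tested without the dimmest 25% of probe sets. BPL1 was called lower at -0.28 after quantile normalization, at -0.28 after median centring, and at -0.26 without wild type replicate 3 (-0.26 to -0.12 over the left-out arrays). The number of biotin genes called was 5 to 6 without single arrays and 3 with a minimum of 2-fold. That minimum left 505 genes called, 484 higher and 21 lower, and per list 0 biotin-carrying proteins, 0 regulators, 0 iron-sulfur genes, 0 S-adenosylmethionine genes, 2 Dal5-type transporters, 0 BIO5-related permeases, 4 Aft1 genes and 1, 0, 2 and 0 neighbours of the cluster, BIO2, VHT1 and BPL1. Without the dimmest 25% of probe sets 1232 genes were called higher, and 3 Dal5-type transporters, 1 BIO5-related permease and 4, 3 and 3 neighbours of BIO2, VHT1 and BPL1, since fewer genes were tested. Of the neighbours of BIO2 quantile normalization left 3 called and cyclic loess 3, and the second left 2 neighbours of BPL1 and 1 regulator. Regulators called were 1 to 2 without single arrays, VHR2 being lost. The share of called genes that were higher was 56.1% as deposited, 42.2% with quantile normalization (1464 higher and 2006 lower), 44.0% after median centring (1651 and 2105), 50.3% after cyclic loess (1673 and 1654) and 45.5% without the dimmest 25% (1232 and 1478). The causes were not tested. Same-numbered arrays did not deviate together (correlations of 0.0273, -0.0167 and -0.0342 across probe sets), and with the replicate block 1956 genes were higher and 1524 lower, with 5 biotin genes called. The dim BIO5 probe set and 3 arrays per strain limit the precision.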
